A study of Mus musculus with 4 samples.

Results

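The genes described here encode enzymes and carriers of methionine, folate, polyamine and choline metabolism, the routes that use the nutrients an MCD feed withholds (methionine and choline, by the usual meaning of the name). The set held 37 gene symbols chosen by name from these pathways, and all 37 were found among the 15367 symbols of the deposited expression table. RNA had been measured in CD8 T cells, the cytotoxic lymphocytes, sorted from the livers of adult C57BL/6 mice. There were 2 libraries labelled as coming from perforin knockout mice (PrfKO-labelled below) and 2 from wild type mice (WT), and all 4 came from animals fed the MCD diet for 4 weeks. No library came from mice on another diet, so the comparison is between genotypes under the diet and holds nothing on the diet itself. The labels do not say whether a group's libraries came from separate or pooled animals, nor what the knockout allele lacks. Values were read as FPKM (fragments per kilobase of transcript, scaled to the library total), although no header names the unit. On that reading, levels of different genes can be set side by side. Pairs of values follow replicates 1 and 2.

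In background terms, methionine is joined to ATP to make S-adenosylmethionine, the methyl donor for DNA, RNA, protein and phospholipid methylation. The homocysteine left over is methylated back to methionine with a carbon unit carried by folate, and serine supplies most of those units. S-adenosylmethionine also feeds the polyamines, and choline is built into phosphatidylcholine, the main membrane phospholipid, through CDP-choline. Activated T cells raise uptake of methionine, serine and glutamine and run these routes to copy DNA and build membranes.

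Pcyt1a and Mtr had the largest fold in each direction among the tested genes of the set (mean of at least 1 FPKM) whose groups did not overlap. The promoter sequences of these genes are shown, from RefSeq on build GRCm38.p6, a later build than the mm8 that the submitters' processing notes name. Each is the 250 bases before the most upstream annotated start, 5′ to 3′ on the gene's strand.
Pcyt1a, chr16:32430671-32430920, plus strand: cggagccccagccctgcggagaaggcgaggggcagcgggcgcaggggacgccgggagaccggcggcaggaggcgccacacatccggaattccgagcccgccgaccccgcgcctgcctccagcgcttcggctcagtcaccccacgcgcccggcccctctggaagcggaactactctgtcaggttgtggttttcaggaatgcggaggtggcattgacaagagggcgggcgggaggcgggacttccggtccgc
Mtr, chr13:12258114-12258363, minus strand: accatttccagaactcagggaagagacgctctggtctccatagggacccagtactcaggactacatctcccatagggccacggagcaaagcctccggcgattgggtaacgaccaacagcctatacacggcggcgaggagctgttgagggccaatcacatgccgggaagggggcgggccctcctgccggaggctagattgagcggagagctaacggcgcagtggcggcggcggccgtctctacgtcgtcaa
These stretches were 71.6% and 62.0% G and C. In windows of 300 bases (250 before and 50 after each start), TGATGNAA, a core shared by sites of the amino acid response factor ATF4, was found in 0 of the 32 matched genes, against 4.51% of 27025 genes. The E-box CACGTG, a site that MYC and related factors can bind, was found in 2 of 32 (6.25%), against 8.09% of all genes. Both strands were searched, and no match of one motif overlapped a match of the other in these genes. The E-box genes were Sms and Dnmt3a, shown with the E-box in capitals.
Sms, chrX:157492466-157492495, minus strand: cccagcggggttCACGTGcatttaaagaaa
Dnmt3a, chr12:3891652-3891681, plus strand: tccagtggggccCACGTGacctggagttct
Srm, Pcyt2, Slc7a5, Slc38a1 and Slc1a5 had no entry in the promoter table.

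A few facts on the libraries bear on every value below. Prf1, the perforin gene, stood at 95.4 and 98.7 FPKM in the PrfKO-labelled libraries, against 125 and 113 FPKM in the WT libraries, so its RNA level did not check the labels. The T cell marker list had summed levels of 3197 and 4030 FPKM in PrfKO-labelled and 4315 and 4076 FPKM in WT libraries, with all 11 genes above 0. Of the 11, 9 had a negative log2 fold change (PrfKO-labelled minus WT). The list's median was -0.23, beside -0.080 over all tested genes. In both PrfKO-labelled libraries 3 were lower and 0 higher, beside 21.9% and 13.9% of all tested genes. The part of T cell content in genes lower in both PrfKO-labelled libraries was not tested. PrfKO-labelled replicate 1 stood apart. Its correlation with each other library across tested genes on the log2(FPKM + 1) scale was 0.914 to 0.924, against 0.961 to 0.969 among the other 3. It held the lowest value for 43.5% of all 9805 tested genes, where the other libraries did so for 17.6% to 20.8%. Its values were also lower as a whole, with a median over tested genes of 9.48 FPKM, against 10.1 to 10.3 FPKM in the others. The main fit did not rescale the libraries. Markers of liver endothelium, a cell type a liver sort could hold, summed to 598 and 162 FPKM in PrfKO-labelled and 406 and 81.9 FPKM in WT libraries. Replicate 1 was above replicate 2 for 18 of 18 genes in both groups. The median log2 fold change of these markers was 0.77, with 17 of 17 tested positive. In both PrfKO-labelled libraries 0 were higher and 0 lower, beside 13.9% and 21.9% of all tested genes. The part of endothelial cells in genes of the set was not tested. Neutrophil markers summed to 116 and 167 FPKM in PrfKO-labelled and 260 and 274 FPKM in WT libraries. Of 12 tested, 9 were lower in both PrfKO-labelled libraries and 0 higher, beside 21.9% and 13.9% of all tested genes. The list's median log2 fold change was -0.86, with 11 of 12 tested negative. At an unadjusted limma p under 0.05 there were 3, all lower in PrfKO-labelled libraries, beside 4.79% of all tested genes. None of the 15 neutrophil markers was at 0 in all libraries, and their part in genes lower in both PrfKO-labelled libraries, such as Mtr, was not tested. Macrophage and Kupffer cell markers summed to 1741 and 2502 FPKM in PrfKO-labelled and 2498 and 2592 FPKM in WT libraries, most of it Lyz2 (1508 and 2391 FPKM in PrfKO-labelled, 2387 and 2510 FPKM in WT libraries). Without Lyz2 the sum was 233 and 111 FPKM in PrfKO-labelled and 111 and 81.3 FPKM in WT libraries, a step taken after the values were seen. The list's median log2 fold change was 0.68, with 7 of 11 tested positive. In both PrfKO-labelled libraries 3 were higher and 2 lower, beside 13.9% and 21.9% of all tested genes. At an unadjusted limma p under 0.05 there were 2, Csf1r (0.80) and Hmox1 (0.68), where 4.79% of all tested genes reached that level. The 4 markers with a negative log2 fold change were Spic (-0.94), Emr1 (-0.37), Lyz2 (-0.37) and Cd68 (-0.12). The part of macrophages and Kupffer cells in genes higher in both PrfKO-labelled libraries, such as Pcyt1a, was not tested. B cell markers summed to 50.8 and 129 FPKM in PrfKO-labelled and 67.1 and 82.8 FPKM in WT libraries. Of 8 tested, 0 were higher and 0 lower in both PrfKO-labelled libraries, beside 13.9% and 21.9% of all tested genes. In bulk RNA, fewer cells of a type and less RNA per cell cannot be told apart.

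Of the 37 genes, 34 had a mean of at least 1 FPKM and were tested, and 0 of 34 passed limma's test at an adjusted p under 0.05. The same test called 0% of all 9805 tested genes, and the smallest adjusted p among the set was 0.866. At an unadjusted p under 0.05 there was 1 gene of the set, Pcyt1a, where 4.79% of all tested genes reached that level. That count was 0 without WT replicate 1 (2.11% of all tested genes) or without PrfKO-labelled replicate 1 (3.53%), 1 without WT replicate 2 (2.56%) and 6 without PrfKO-labelled replicate 2 (21.1%). The groups did not overlap for 12 genes, beside 35.9% of all tested genes. Higher in both PrfKO-labelled libraries were 5 genes, namely Pcyt1a, Chpt1, Mthfd1, Shmt1 and Slc38a2 (background 13.9% of all tested genes). Another 7 were lower in both, namely Mat2b, Mtr, Mtrr, Slc19a1, Cept1, Slc38a1 and Dnmt1 (background 21.9%). As shares of 34, these were 14.7% and 20.6%, near the background in both directions. With upper-quartile scaling of the libraries the counts were 6 higher and 4 lower (17.3% and 18.5% of all tested genes), and with median scaling 5 and 4 (15.8% and 20.1%). Mtrr, Slc38a1 and Dnmt1 overlapped after either scaling, and Shmt2 joined the higher genes after the upper-quartile one. Without PrfKO-labelled replicate 1 the counts were 12 higher and 9 lower, where a lone library makes a gap more common (31.9% and 34.2% of all tested genes).

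The median log2 fold change (PrfKO-labelled minus WT, on FPKM + 1) was -0.044 over the 34 genes and -0.080 over all tested genes. The median size of the change, whatever its sign, was 0.17 in the set and 0.27 over all tested genes. For the set, the median gap between replicates was 0.36 for the PrfKO-labelled libraries and 0.20 for the WT libraries. Over all tested genes these gaps were 0.42 and 0.28. Such gaps are between single libraries, which vary more than the means of 2 libraries behind a group difference, so the sizes are not directly comparable. The group difference exceeded both replicate gaps for 7 of 34 genes (20.6%), against 21.8% of all tested genes. For 22 of 34 genes the 95% interval lay wholly within a 2-fold change either way, against 40.4% of all tested genes. The set's median turned positive, at 0.080 without WT replicate 2 and at 0.046 without PrfKO-labelled replicate 1. It was -0.11 without WT replicate 1 and -0.20 without PrfKO-labelled replicate 2, and no direction is read from it. Of the 34 fold changes, 29 turned sign or moved by over 1.5 times when some library was left out. The other 5 were those of Mtr, Mthfd1, Shmt1, Pcyt1a and Slc38a2. All 5 are among the 7 genes whose group difference exceeded both replicate gaps, a share near that of all tested genes. The left-out-library counts were not taken over all tested genes, so no stability particular to these genes is read from them.

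**Figure D1:**
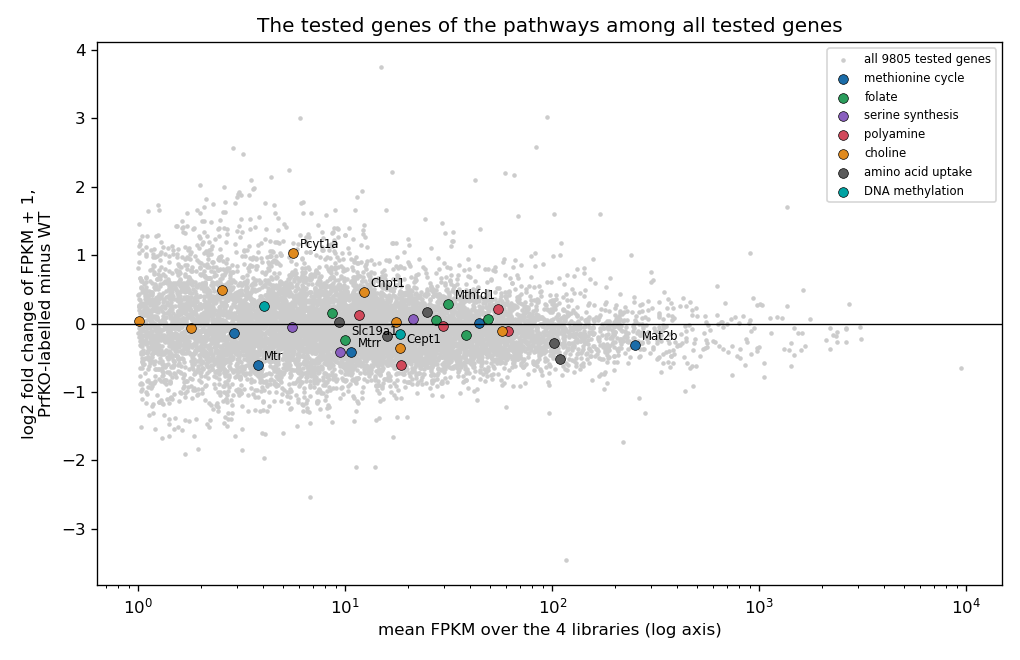
Each point is a gene, with its mean FPKM over the 4 libraries on the log horizontal axis and its log2 fold change (PrfKO-labelled minus WT, on FPKM + 1) on the vertical axis; grey points are the 9805 tested genes and coloured points the 34 tested genes of the set by role. The coloured points run from -0.61 for Mtr to 1.03 for Pcyt1a and lie within the grey cloud; names mark genes whose groups did not overlap, apart from those with the smallest changes.

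Levels spanned a wide range. Means over the 4 libraries were at least 100 FPKM for 3 genes (Mat2b, Slc1a5 and Slc3a2), between 10 and 100 FPKM for 19, between 1 and 10 FPKM for 12 and under 1 FPKM for 3. The 3 under 1 FPKM were Ahcy, Amd1 and Pemt. Mat2b, at the 97.9th percentile of tested genes by mean level, stood highest in every library.

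**Figure D2:**
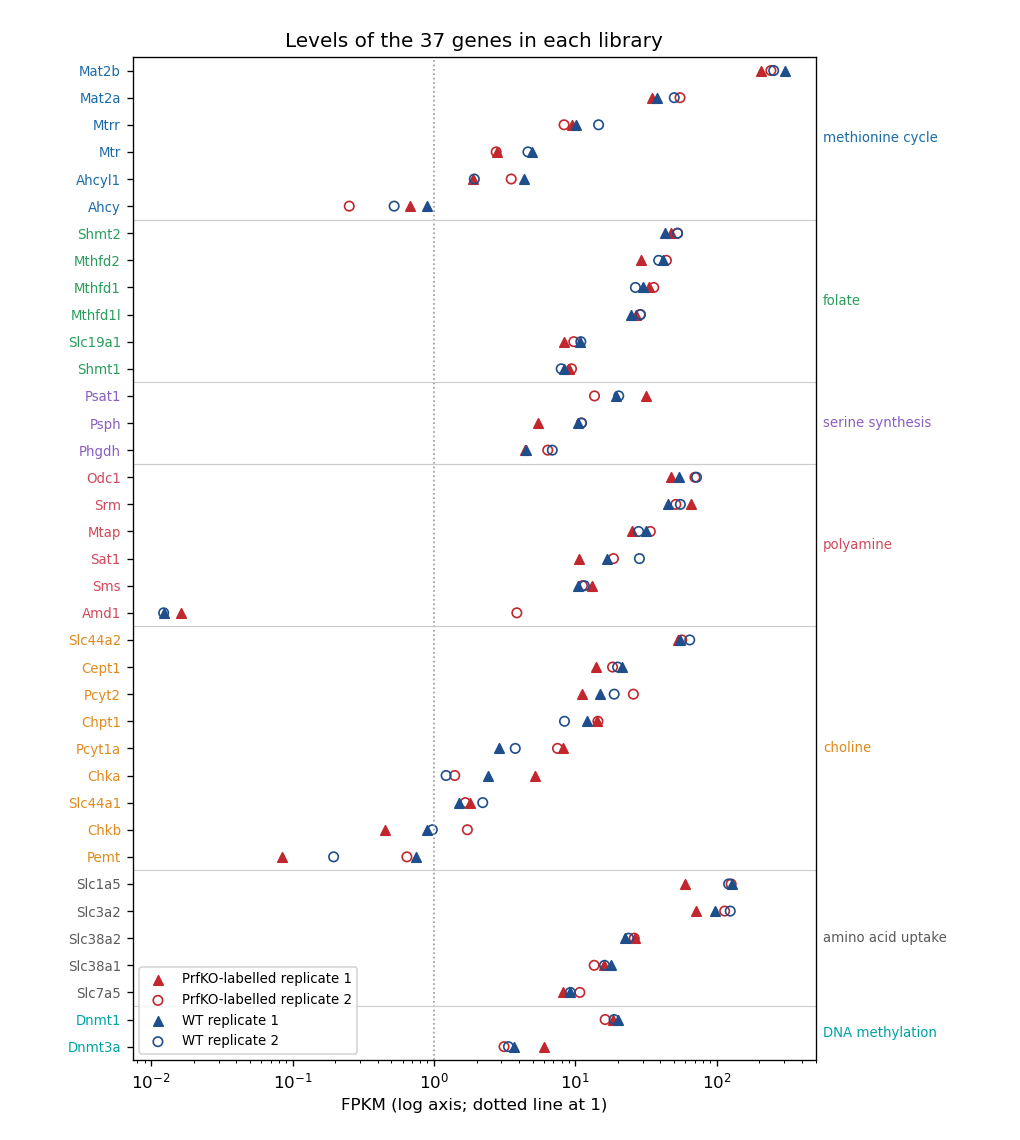
FPKM of each of the 37 genes in each library on a log axis, grouped by role and ordered by mean within a role; red marks are PrfKO-labelled libraries, blue marks WT libraries, triangles replicate 1 and open circles replicate 2. Most genes place their 4 marks close together with red and blue mixed. Pcyt1a (7.48 to 8.17 FPKM against 2.90 to 3.76 FPKM) and Mtr (2.75 to 2.81 FPKM against 4.62 to 4.91 FPKM) separate by group. Other genes whose groups did not overlap, such as Mthfd1 and Slc38a2, separate by smaller gaps.

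In the methionine cycle, 3 of 5 tested genes lay below in both PrfKO-labelled libraries and 0 above in both, and 0 passed the test. Over all tested genes the shares were 21.9% below and 13.9% above. Of the 3 lower genes, Mtrr overlapped between groups after upper-quartile scaling and after median scaling. Mtr, methionine synthase, which methylates homocysteine with a folate-borne carbon, had 2.81 and 2.75 FPKM in PrfKO-labelled libraries, against 4.91 and 4.62 FPKM in WT libraries. Replicates of each group were close together and the groups did not overlap. Its change on the log2 scale was -0.61 (SE 0.36, 95% interval -1.44 to 0.22, limma adjusted p = 0.866) and ranged from -0.64 to -0.57 with each library left out in turn. Mtrr, the reductase that keeps methionine synthase active, had 9.54 and 8.32 FPKM in PrfKO-labelled libraries, against 10.1 and 14.6 FPKM in WT libraries. WT replicate 2 was the high library, and the log2 fold change of -0.41 was -0.16 without it and -0.65 without WT replicate 1. Mat2b, the regulatory subunit of the S-adenosylmethionine-forming enzyme, had 207 and 242 FPKM in PrfKO-labelled and 304 and 253 FPKM in WT libraries. PrfKO-labelled replicate 2 and WT replicate 2 nearly touched, and the log2 fold change of -0.31 (SE 0.25) was -0.18 without WT replicate 1 and -0.20 without PrfKO-labelled replicate 1.

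The catalytic partner of Mat2b did not share its order. Mat2a, which encodes the catalytic subunit used outside hepatocytes, had 34.9 and 55.0 FPKM in PrfKO-labelled libraries, against 37.6 and 50.1 FPKM in WT libraries. Replicate 2 was the higher library in both groups, and the log2 fold change was 0.013 (SE 0.30). Mat2a overlaps the long noncoding RNA gene Particl on the opposite strand, and reads from an unstranded kit do not tell such genes apart. Ahcyl1, a homolog of the S-adenosylhomocysteine hydrolase that acts in calcium and ion signalling, had 1.88 and 3.52 FPKM in PrfKO-labelled libraries, against 4.33 and 1.93 FPKM in WT libraries, and the groups overlapped. Ahcy, the hydrolase that clears S-adenosylhomocysteine, was listed at only 0.676 and 0.252 FPKM in PrfKO-labelled libraries, against 0.893 and 0.523 FPKM in WT libraries. It has 2 near-identical copies in GENCODE M21 (at least 95% identity over at least 300 bases), so its level is uncertain.

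The hepatocyte forms of the cycle were near 0. Mat1a, the catalytic subunit of hepatocytes, was listed at 0.596 and 0 FPKM in PrfKO-labelled and 0 and 1.41 FPKM in WT libraries. Bhmt, the choline-derived betaine route to methionine in liver, was at 0.0490 and 0 FPKM in PrfKO-labelled and 0 and 0.156 FPKM in WT libraries. Gnmt, the liver's glycine methyltransferase, was under 0.1 FPKM in all 4 libraries. Of 20 hepatocyte markers, 17 had a mean under 1 FPKM, and Cps1, Ttr, Tdo2 and Fgb were listed at 0 in all 4. The list's summed level was 37.8 and 20.3 FPKM in PrfKO-labelled libraries and 24.8 and 32.9 FPKM in WT libraries. Most of that sum in 3 libraries was Hp, haptoglobin, which myeloid cells also make, at 9.75 and 18.7 FPKM in PrfKO-labelled and 23.9 and 26.7 FPKM in WT libraries. PrfKO-labelled replicate 1 differed, with Apoa2 and Alb high in it alone. Apoa2 had 10.4 and 0 FPKM in PrfKO-labelled and 0 and 1.28 FPKM in WT libraries. Alb had 7.65 and 0.172 FPKM in PrfKO-labelled and 0 and 0.950 FPKM in WT libraries. The 3 tested markers had log2 fold changes of 1.19 (Alb), 1.16 (Apoa2) and -0.85 (Hp). The part of hepatocyte RNA in genes of the set was not tested.

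Folate genes went both ways, with 2 above and 1 below in both PrfKO-labelled libraries among 6 tested, and 0 passed the test. Over all tested genes the shares were 13.9% above and 21.9% below. Mthfd1, the cytosolic trifunctional enzyme that interconverts folate carbon units, had 33.4 and 35.8 FPKM in PrfKO-labelled libraries, against 30.0 and 26.6 FPKM in WT libraries. Both PrfKO-labelled libraries lay above both WT libraries, with a log2 fold change of 0.28 (SE 0.25, limma adjusted p = 0.882). Shmt1, the cytosolic enzyme that takes a carbon from serine, had 9.01 and 9.39 FPKM in PrfKO-labelled libraries, against 8.34 and 7.94 FPKM in WT libraries, a small gap without overlap. Its log2 fold change was 0.16 (SE 0.30), and its exons overlap Smcr8 on the opposite strand. Slc19a1, the reduced folate carrier of the plasma membrane, had 8.34 and 9.75 FPKM in PrfKO-labelled libraries, against 10.8 and 10.9 FPKM in WT libraries, with a log2 fold change of -0.25 (SE 0.29) that was -0.15 without PrfKO-labelled replicate 1.

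The mitochondrial arm overlapped between groups. Shmt2, the mitochondrial serine hydroxymethyltransferase, had 47.6 and 52.8 FPKM in PrfKO-labelled libraries, against 43.4 and 52.7 FPKM in WT libraries. Mthfd2, the mitochondrial dehydrogenase that activated T cells induce, had 28.9 and 44.1 FPKM in PrfKO-labelled libraries, against 41.6 and 38.8 FPKM in WT libraries. PrfKO-labelled replicate 1 was the low one, and the log2 fold change of -0.17 turned to 0.13 without it. Mthfd1l, the mitochondrial formate-releasing synthetase, had 27.1 and 28.7 FPKM in PrfKO-labelled libraries, against 24.7 and 28.9 FPKM in WT libraries. In all 4 libraries Shmt2 stood above Shmt1, so the mitochondrial serine enzyme had the higher RNA level per length.

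Serine synthesis from glucose overlapped between groups for 3 of 3 genes. Phgdh, the entry enzyme of that route, had 4.40 and 6.38 FPKM in PrfKO-labelled libraries, against 4.45 and 6.87 FPKM in WT libraries, with replicate 2 above replicate 1 in both groups. It has 8 pseudogene copies, so its level is uncertain. Psat1, the aminotransferase after it, had 31.7 and 13.7 FPKM in PrfKO-labelled libraries, against 19.4 and 20.3 FPKM in WT libraries. The PrfKO-labelled libraries lay on either side of both WT libraries. Psph, the phosphatase of the last step, had 5.41 and 11.0 FPKM in PrfKO-labelled libraries, against 10.4 and 11.1 FPKM in WT libraries, with PrfKO-labelled replicate 1 alone at the low end. Its exons overlap the chaperonin gene Cct6a on the opposite strand, at 292 and 258 FPKM in PrfKO-labelled and 218 and 222 FPKM in WT libraries.

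Polyamine genes overlapped between groups for 5 of 5 tested. Odc1, ornithine decarboxylase, the entry enzyme, had 47.2 and 70.1 FPKM in PrfKO-labelled libraries, against 53.8 and 71.9 FPKM in WT libraries. Replicate 2 was the higher library in both groups. Srm, spermidine synthase, had 65.9 and 51.4 FPKM in PrfKO-labelled libraries, against 45.0 and 55.3 FPKM in WT libraries. Sms, spermine synthase, was between 10.5 and 13.1 FPKM in all 4 libraries. Without PrfKO-labelled replicate 1 the log2 fold change of Srm, 0.22 with all libraries, was 0.042, and that of Sms, 0.12 with all libraries, was 0.022. Mtap, which salvages methionine from the by-product of polyamine synthesis, had 25.0 and 33.9 FPKM in PrfKO-labelled libraries, against 31.8 and 28.0 FPKM in WT libraries.

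Sat1, the acetyltransferase that marks polyamines for breakdown and export, had the most negative fold of the polyamine genes. It stood at 10.5 and 18.6 FPKM in PrfKO-labelled libraries, against 16.7 and 28.4 FPKM in WT libraries. Replicate 2 was higher in both groups and the groups overlapped, with a log2 fold change of -0.60 (SE 0.37, limma adjusted p = 0.866) that ranged from -0.98 to -0.22 with each library left out in turn, the smallest sizes being those without PrfKO-labelled replicate 1 (-0.22) and WT replicate 2 (-0.23). Odc1, Sms and Sat1 also have pseudogene copies.

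Amd1, the decarboxylase that turns S-adenosylmethionine into the aminopropyl donor of polyamines, was listed at 0.0163 and 3.86 FPKM in PrfKO-labelled libraries, against 0.0123 and 0.0123 FPKM in WT libraries. Its near-identical copy Amd2, which is not one of the 37 and was looked up after the Amd1 values were seen, held nearly all of the signal. Amd2 had 69.6 and 92.7 FPKM in PrfKO-labelled libraries, against 84.2 and 87.6 FPKM in WT libraries. The sum of both genes was 69.6 and 96.6 FPKM in PrfKO-labelled and 84.2 and 87.6 FPKM in WT libraries, and these groups overlapped. How the deposited values divide reads between the copies is not known, so Amd1 by itself is not read as a level or a difference.

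Among choline genes, 2 of 8 tested lay above and 1 below in both PrfKO-labelled libraries, and 0 passed the test. Over all tested genes the shares were 13.9% above and 21.9% below. Pcyt1a, the enzyme that makes CDP-choline at the step that sets the rate of the route, had 8.17 and 7.48 FPKM in PrfKO-labelled libraries, against 2.90 and 3.76 FPKM in WT libraries. Both PrfKO-labelled libraries were well above both WT libraries, and replicates within a group were close. The ratio of means was 2.35, and the log2 fold change was 1.03 (SE 0.34, unadjusted 95% interval 0.25 to 1.81), the largest among the 34 tested genes. With adjustment over all genes it did not pass (limma adjusted p = 0.866, unadjusted p = 0.0154), and it ranged from 0.89 to 1.18 with each library left out in turn. Its exons overlap 2210020O09Rik and Slc51a on the opposite strand in GENCODE M21, so part of its signal may belong to them, and this was not tested.

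The steps on either side of Pcyt1a gave mixed values. Chka, the choline kinase that starts the route, had 5.17 and 1.40 FPKM in PrfKO-labelled libraries, against 2.41 and 1.22 FPKM in WT libraries. Replicate 1 was the higher library in both groups, the order that the endothelial markers also had, and the part of those cells in it was not tested. Chkb, the second kinase, had 0.450 and 1.72 FPKM in PrfKO-labelled libraries, against 0.899 and 0.974 FPKM in WT libraries. Chpt1, a transferase that completes phosphatidylcholine, had 14.2 and 14.4 FPKM in PrfKO-labelled libraries, against 12.1 and 8.38 FPKM in WT libraries, with a log2 fold change of 0.47 (SE 0.30) that was 0.23 without WT replicate 2 and 0.71 without WT replicate 1. Cept1, which completes both phosphatidylcholine and phosphatidylethanolamine, had 13.9 and 18.3 FPKM in PrfKO-labelled libraries, against 21.5 and 19.9 FPKM in WT libraries. The terminal enzymes had folds of opposite sign, and Cept1's of -0.35 (SE 0.28) was -0.17 without PrfKO-labelled replicate 1 and -0.54 without PrfKO-labelled replicate 2. Chpt1 overlaps Sycp3, and Cept1 overlaps Dennd2d and Dram2, on the opposite strand.

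Choline carriers and the ethanolamine branch overlapped between groups. Slc44a2, a choline transporter-like protein, was the most abundant choline gene, at 53.4 and 56.6 FPKM in PrfKO-labelled libraries, against 55.2 and 64.4 FPKM in WT libraries, and its log2 fold change of -0.11 was -0.0045 without WT replicate 2. Slc44a1, the plasma membrane and mitochondrial choline transporter, stayed between 1.51 and 2.21 FPKM in all 4 libraries. Pcyt2, the corresponding enzyme for ethanolamine, had 11.1 and 25.7 FPKM in PrfKO-labelled libraries, against 14.9 and 18.8 FPKM in WT libraries, so the PrfKO-labelled libraries took both extremes. Pemt, the hepatocyte enzyme that makes phosphatidylcholine by methylating phosphatidylethanolamine, was at 0.0845 and 0.643 FPKM in PrfKO-labelled libraries, against 0.748 and 0.195 FPKM in WT libraries, under 1 FPKM throughout.

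**Figure D3:**
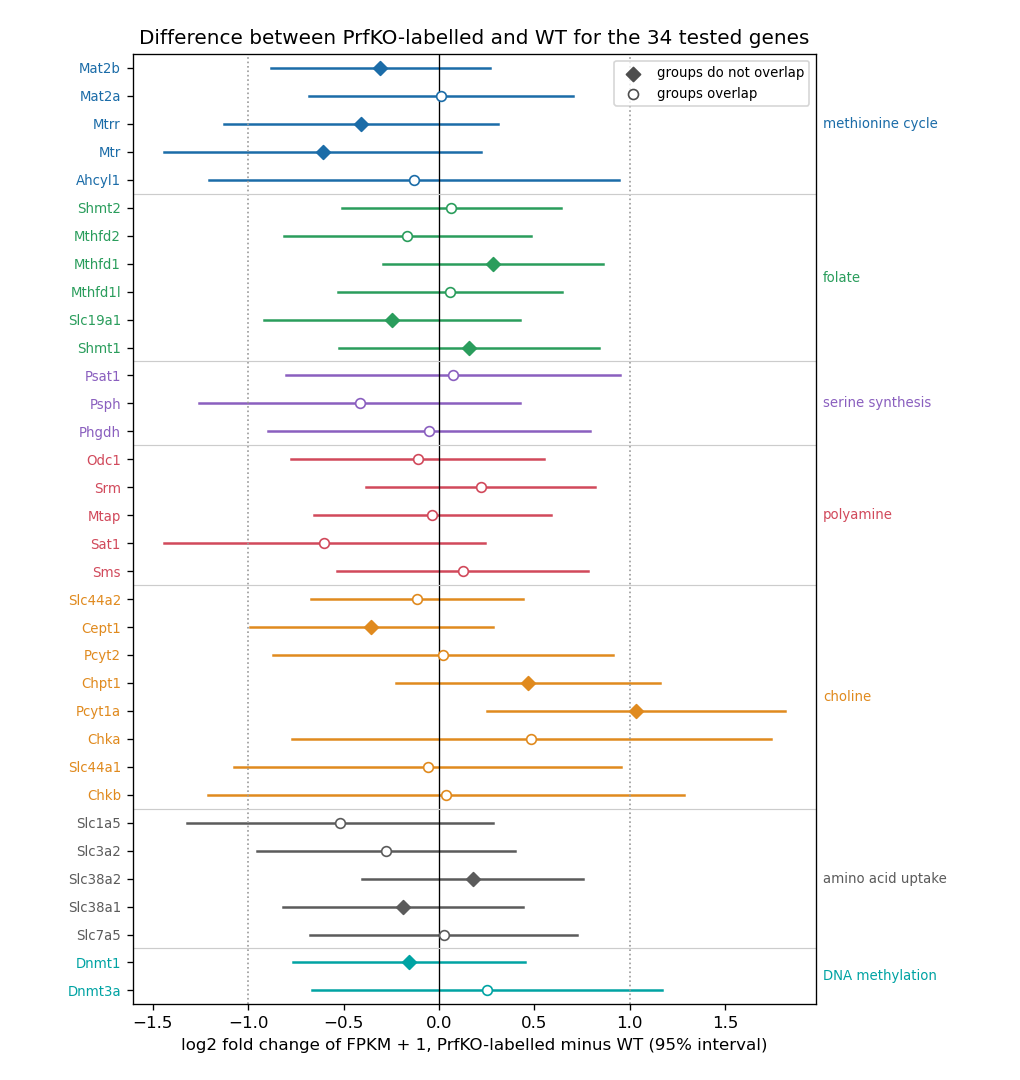
Log2 fold change of FPKM + 1 (PrfKO-labelled minus WT) for the 34 tested genes with limma's unadjusted 95% interval; filled diamonds mark genes whose groups did not overlap, open circles those that overlapped, and dotted lines a 2-fold change. Pcyt1a, at 1.03, has the only interval that leaves out 0, and 22 of 34 intervals lie between the dotted lines.

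Amino acid carriers were among the most abundant genes of the set. Slc1a5, the carrier of glutamine and other neutral amino acids also called ASCT2, had 59.6 and 126 FPKM in PrfKO-labelled libraries, against 129 and 121 FPKM in WT libraries. Only PrfKO-labelled replicate 1 was low, and the log2 fold change of -0.52 (SE 0.35) was 0.017 without it. Slc3a2, the heavy chain that carries Slc7a5 to the membrane, had 71.9 and 114 FPKM in PrfKO-labelled libraries, against 96.9 and 125 FPKM in WT libraries. Slc7a5, the light chain that takes up methionine and leucine, had 8.15 and 10.8 FPKM in PrfKO-labelled libraries, against 9.17 and 9.23 FPKM in WT libraries, and its log2 fold change was 0.024 (SE 0.31).

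The glutamine and alanine carriers of the Slc38 family had narrow gaps in opposite directions. Slc38a2, the carrier that amino acid shortage induces, had 26.5 and 26.1 FPKM in PrfKO-labelled libraries, against 22.5 and 23.8 FPKM in WT libraries, without overlap and with a log2 fold change of 0.18 (SE 0.25). Slc38a1 had 16.0 and 13.6 FPKM in PrfKO-labelled libraries, against 17.8 and 16.1 FPKM in WT libraries. Its groups nearly touched, they overlapped after rescaling, and the log2 fold change of -0.19 ranged from -0.30 to -0.076 with each library left out in turn.

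DNA methyltransferases, which consume S-adenosylmethionine, did not pass either. Dnmt1, the maintenance enzyme, had 18.5 and 16.2 FPKM in PrfKO-labelled libraries, against 20.0 and 18.8 FPKM in WT libraries, with a log2 fold change of -0.16 (SE 0.27) that was -0.069 without PrfKO-labelled replicate 2 and -0.24 without PrfKO-labelled replicate 1. Dnmt3a, the de novo enzyme of T cell differentiation, had 5.97 and 3.13 FPKM in PrfKO-labelled libraries, against 3.65 and 3.36 FPKM in WT libraries. PrfKO-labelled replicate 1 alone was high, and the log2 fold change of 0.25 was -0.13 without it. Dnmt3a overlaps the antisense gene Dnmt3aos.

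The library that stood apart over all genes also did so here. PrfKO-labelled replicate 1 held the lowest of the 4 values for 17 of 34 genes, beside 43.5% of all tested genes, and the highest for 7. Without it 11 of 34 fold changes turned sign, among them Slc1a5, Slc3a2, Psph, Psat1, Mthfd2, Chka and Dnmt3a. The count of turned signs was not taken over all tested genes. Replicate 1 lay below replicate 2 in both groups for 13 genes, among them Mat2a, Odc1, Sat1, Phgdh, Slc3a2 and Slc7a5 (background 29.9% of all tested genes). The opposite order was seen for 5, namely Dnmt3a, Mtr, Slc38a1, Chka and Dnmt1 (background 19.7%).

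**Figure D4:**
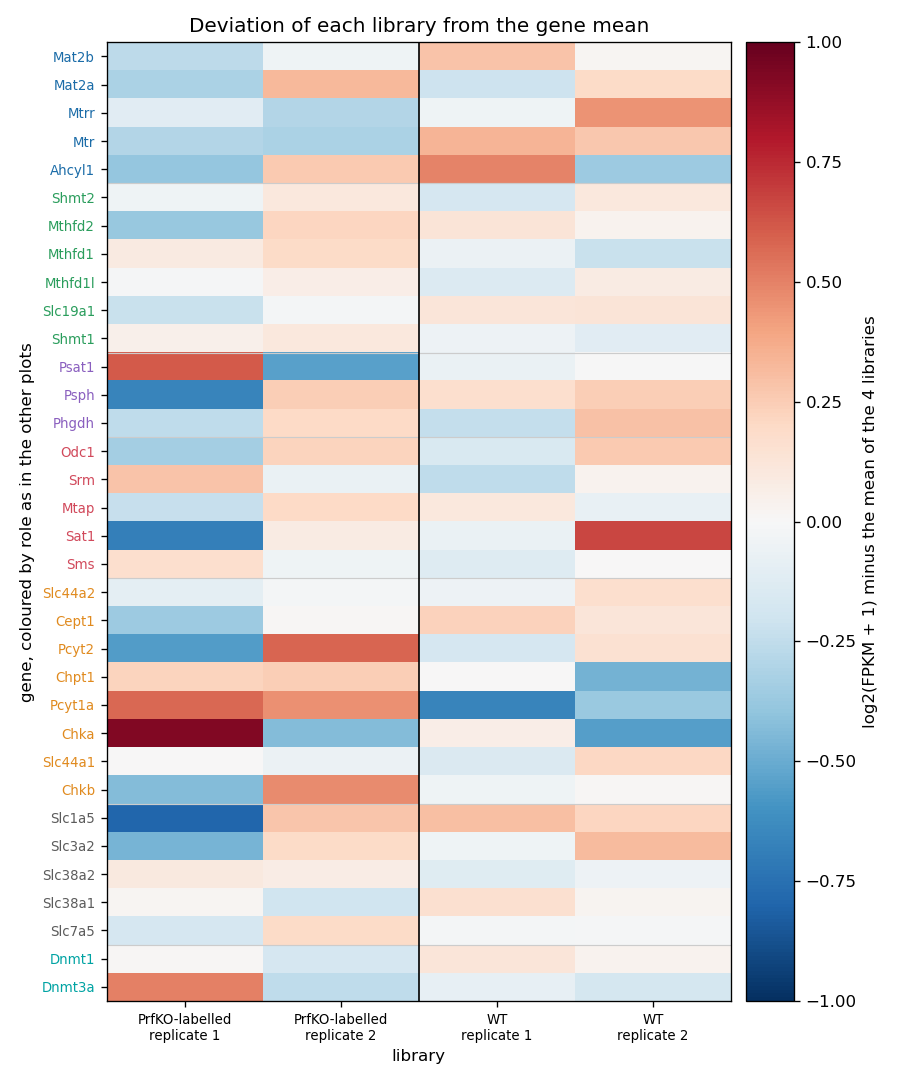
Each row is 1 of the 34 tested genes and each column a library; colour gives log2(FPKM + 1) minus the mean of the 4 libraries, red above and blue below. The PrfKO-labelled replicate 1 column holds the lowest value for 17 of 34 genes. Pcyt1a and Mtr show 1 colour in both PrfKO-labelled columns and the other colour in both WT columns. Some other genes whose groups did not overlap, such as Mthfd1 and Slc38a2, show the same split with smaller deviations.

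Beyond the 37, a further 86 genes of the same pathways were tested, and 0 passed at an adjusted p under 0.05, with 13 higher (15.1%) and 21 lower (24.4%) in both PrfKO-labelled libraries, beside 13.9% and 21.9% of all tested genes. Their median log2 fold change was -0.048, beside -0.080 over all tested genes. At an unadjusted p under 0.05 there were 2. Sfxn1, the mitochondrial serine carrier, had 14.9 and 22.8 FPKM in PrfKO-labelled libraries, against 37.3 and 30.1 FPKM in WT libraries (log2 fold -0.83, SE 0.30). Folr4, named as a folate receptor but known as the egg protein Juno and as a surface marker of regulatory T cells, had 25.0 and 23.4 FPKM in PrfKO-labelled libraries, against 18.8 and 9.35 FPKM in WT libraries (log2 fold 0.81, SE 0.35).

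Other polyamine genes were lower in both PrfKO-labelled libraries for 5 of 10 tested and higher for 2, with 0 passing (background 21.9% lower and 13.9% higher, as for every count of this kind below). Eif5a, the translation factor modified from spermidine, had 259 and 357 FPKM in PrfKO-labelled libraries, against 423 and 489 FPKM in WT libraries (log2 fold -0.58, SE 0.27). Arg2, an arginase that supplies ornithine, had 0.903 and 0.541 FPKM in PrfKO-labelled libraries, against 2.19 and 2.77 FPKM in WT libraries. Among other choline and phospholipid genes 4 of 16 were lower and 0 higher in both, with Gpcpd1, which releases choline from glycerophosphocholine, at a log2 fold of -0.49 and Aldh7a1, a betaine aldehyde dehydrogenase, at -0.79.

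The remaining pathway lists went both ways with 0 passing in each. Among 14 other methionine cycle genes, 1 lay above and 2 below in both PrfKO-labelled libraries, with the salvage enzyme Mri1 at a log2 fold of -0.38 and the methyltransferase Icmt at 0.42. Other folate, serine and glycine genes had 3 of 18 higher and 4 lower. Other amino acid carriers had 5 of 14 higher and 3 lower, with Slc7a8 at 1.02, from values of 3.52 and 0.389 FPKM in PrfKO-labelled libraries, against 0.262 and 0.203 FPKM in WT libraries, and the taurine carrier Slc6a6 at -0.49. Other DNA methylation genes had 2 of 14 higher and 3 lower, with the glycosylase Tdg at -0.72 and Uhrf2 at 0.80. Uhrf2 had 14.5 and 7.124 FPKM in PrfKO-labelled libraries, against 4.12 and 7.118 FPKM in WT libraries. PrfKO-labelled replicate 2 and WT replicate 2 nearly touched for this gene.

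Genes that respond to amino acid shortage through ATF4 were 5 of 26 higher and 6 lower in both PrfKO-labelled libraries, with 0 passing and a median log2 fold of -0.099. Atf3 had 194 and 159 FPKM in PrfKO-labelled libraries, against 86.3 and 128 FPKM in WT libraries (log2 fold 0.73, SE 0.28). The asparaginyl-tRNA synthetase gene Nars had 51.2 and 86.9 FPKM in PrfKO-labelled libraries, against 113 and 87.0 FPKM in WT libraries. Among 21 MYC and MYC-linked growth genes, 1 lay above and 3 below in both, with the chaperonin Hspd1 at 0.50 and Dkc1 at -0.46. Among 24 proliferation genes, 1 lay above and 4 below in both, with the replication gene Gins2 at -1.40 and the cyclin Ccne1 at -0.50. Summed levels of the proliferation list were 454 and 345 FPKM in PrfKO-labelled and 337 and 478 FPKM in WT libraries, overlapping between groups.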

How the data were processed

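Total RNA of sorted hepatic CD8 T cells was sequenced on an Illumina HiSeq from TruSeq libraries, a kit that does not mark strand, per the labels' protocols. Bowtie 0.12.2 and mm8 are named, without a role, per the submitters' processing notes; the quantification tool, annotation and filters were not stated there. The deposited values were read as FPKM from their form, since no header names the unit. They carry no read numbers, so depth is unknown; the columns summed to 334493 to 392785. Groups and replicate numbers came from the titles. Because separate animals are not stated, p-values reflect only sample-to-sample spread, which may be technical.

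Values were analysed as log2(FPKM + 1) with limma 3.58.1 in R 4.3.3 (moderated test with intensity trend, two-sided, Benjamini-Hochberg over all 9805 genes with a mean of at least 1 FPKM, threshold 0.05). Fold changes on this scale understate those of low genes. An exact permutation test of 2 against 2 libraries cannot go below 0.333. The procedure was also run on simulated data, with noise drawn from the fit's own spread and independent between libraries. Such data hold no library that stands apart, so that run does not speak to one. The genes and lists were chosen with earlier results of these data known. Outside the 37, up to 2 genes per list with the smallest p among those without overlap were named. Overlaps and copies came from GENCODE M21 (blastn 2.17.0). There, 12 of the 37 genes overlap an exon of an opposite-strand gene, and 8 have a pseudogene copy. Overlaps not named above are those of Mthfd1, Shmt2, Chka, Chkb and Slc44a1, and Mat2a and Chpt1 also have a pseudogene copy. Alternatives covered the pseudocount, the filter on low values, scaling, the replicate block, the trend, sample weights and each library left out; those for Prf1 were added after seeing the data. Figures used matplotlib 3.10.9.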

Additional observations from a re-analysis of the deposited data

How the results depend on the processing

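The count of the 37 genes called, and of the other pathway genes called, was 0 under all 13 alternatives run, and the count over the whole table was 0 in 11 of them. That count ranged from 0 to 1 when a library was left out (Atp5k without WT replicate 2, H2-Q6 without PrfKO-labelled replicate 2, both named after their values were seen). The median log2 fold change of the set ranged from -0.20 to 0.080 over the left-out libraries. With the replicate number as a block, 0 genes of the table were called; same-numbered libraries' deviations correlated at 0.068 over 2 pairs, too few to show whether the numbers pair the libraries, and endothelial markers were higher in replicate 1 of both groups. Signs turned for Mtap, to 0.043 with upper-quartile and 0.016 with median scaling, for Phgdh, to 0.013 with upper-quartile scaling, and for Chkb, to -0.049 with a pseudocount of 0.1, and the cause was not tested. Counts of kept and turned signs were taken for the set only, not over all tested genes. Of 34 fold changes, 16 kept their sign in every alternative, but 29 turned sign or moved by over 1.5 times without some library. The left-out-library ranges of those that turned were -0.31 to 0.33 for Mat2a, -0.56 to 0.30 for Ahcyl1, -0.25 to 0.18 for Mtap, -0.46 to 0.13 for Mthfd2, -0.050 to 0.16 for Mthfd1l, -0.072 to 0.20 for Shmt2, -0.39 to 0.17 for Odc1, -0.20 to 1.16 for Chka, -0.42 to 0.49 for Chkb, -0.55 to 0.59 for Pcyt2, -0.24 to 0.12 for Slc44a1, -0.16 to 0.21 for Slc7a5, -0.60 to 0.050 for Slc3a2, -1.06 to 0.017 for Slc1a5, -0.32 to 0.21 for Phgdh, -0.51 to 0.65 for Psat1, -0.87 to 0.039 for Psph and -0.13 to 0.63 for Dnmt3a. Fits on 3 libraries take the spread of the single remaining library from the complete group. Unknown depth and 2 libraries a group limit the precision, with a median standard error of 0.30 for the set.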
